A study of Mus musculus with 146 samples.

Results

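Zp1, Zp2 and Zp3 encode the glycoproteins of the zona pellucida, the extracellular coat of the mouse egg, and were taken by symbol as 3 of the 52605 gene symbols measured in single germ cells of the newborn mouse ovary. The study collected cells by mouth pipetting from ovaries of 1 litter of C57/BL6J mice at day 0.5 after birth, and deposited 146 Smart-seq2 libraries, a full-length cDNA method for single cells, with synthetic spike-in RNAs added. Libraries positive for the pregranulosa gene Foxl2 by qPCR had been set aside before sequencing, and no treatment or genotype was compared. The labels tie no cell to an animal, so all cells are 1 sample, values are descriptions of that sample, and no test was made over cells.

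Of the 146 libraries, 7 repeated the cell of another library. Log2(TPM + 1) of coding genes correlated at 0.991 or more within these 7 pairs and at 0.879 or less in any other pair of libraries. Each pair was merged to 1 cell. The germ cell gene Ddx4 (Vasa), an RNA helicase, was at 0 in 1 cell, which was left out, and at 7.49 to 542 TPM in all others. The germ cells described here are thus the 146 libraries less 7 repeats and 1 cell without Ddx4. TPM, the abundance of a transcript relative to all transcripts of the cell, is corrected for length and lets the 3 genes be set side by side. The germ cells held 4837063 to 33117438 estimated reads, with a median of 9669903. Ddx4, Dazl, Sycp3 and Figla were at 1 TPM or more in every germ cell, and Foxl2 was at 0 in all but 8. The blood or endothelial markers summed to a median of 41.4 TPM but to 171809 TPM in the highest cell, chiefly from globin genes, and that cell had 3 reads of Zp2, 1 of Zp3 and 0 of Zp1.

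The zona pellucida forms around oocytes as they begin to grow, and sperm bind to it at fertilization. ZP2 and ZP3 build its filaments and ZP1 cross-links them; all 3 proteins carry the ZP domain, through which such proteins polymerise. FIGLA, a basic helix-loop-helix factor of the oocyte that pairs with E12, a product of Tcf3, acts on the zona genes through E-box motifs. Mice make no ZP4 protein, since the gene is a pseudogene, Zp4-ps. After fertilization the protease ovastacin, the product of Astl, cleaves ZP2.

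The genes lie on separate chromosomes in GRCm38 with the GENCODE M21 annotation. Zp1 (ENSMUSG00000024734.8) spans chr19:10914287-10920632 on the minus strand, and its longest coding transcript has 12 exons and 1963 bases. Zp2 (ENSMUSG00000030911.7) spans chr7:120126772-120145291 on the minus strand, with coding transcripts of 2221 and 2233 bases in 18 exons. Zp3 (ENSMUSG00000004948.12) spans chr5:135980099-135988624 on the plus strand, with 8 exons and 1323 bases. The ratio of estimated reads to TPM, scaled on the spike-ins, put the effective length, the part of a transcript in which a fragment can start, at a median of 1606 bases for Zp1 in 36 cells, 2086 for Zp2 in 84 and 1045 for Zp3 in 47. These lengths lie below those of the full coding transcripts and above those of the short annotated forms. Zp2 also has an annotated nonsense-mediated decay form of 2393 bases, so its length does not tell which form gave its reads.

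The promoter of Zp3 is shown because FIGLA is known to act through E-boxes, and Figla was measured in the same cells. The RefSeq promoter table used here was matched for 1 of the 3 genes, Zp3, and the 250 bases before its start are at chr5:135979855-135980104 of GRCm38.p6 on the plus strand. Capitals mark matches to CANNTG, the E-box, which reads the same on both strands, and to TATAA, the core of a TATA box, in the direction of the gene.
Zp3: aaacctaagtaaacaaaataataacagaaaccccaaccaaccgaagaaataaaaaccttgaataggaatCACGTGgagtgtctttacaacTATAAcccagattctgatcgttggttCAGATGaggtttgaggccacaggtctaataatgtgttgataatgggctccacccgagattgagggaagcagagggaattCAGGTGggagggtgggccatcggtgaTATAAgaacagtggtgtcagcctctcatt
The first CANNTG match, which reads CACGTG, begins 181 bases before the start, and the last, which reads CAGGTG, begins 55 bases before it, with 1 more between them. The TATAA matches begin 160 and 29 bases before the start, and the reverse motif TTATA is not in this window. Of 32851 promoters of the same length, 66.2% hold a CANNTG and 12.2% hold 3 or more. CAGGTG is found, on either strand, in 17.2% of them and CACGTG in 6.02%. TATAA is found on either strand in 22.8%, with 2 or more matches in 8.66%. A match is a match of letters and no measurement of binding.

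Zp2 was detected in the most cells, Zp3 in fewer and Zp1 in the fewest. At a threshold of 1 TPM, Zp2 was detected in 88 germ cells and not in 50 (63.8%, exact Clopper-Pearson 95% interval 55.2 to 71.8), Zp3 in 52 (37.7%, 29.6 to 46.3) and Zp1 in 37 (26.8%, 19.6 to 35.01). The interval of Zp2 does not meet those of the other genes, while those of Zp3 and Zp1 overlap, and all intervals cover counting error over cells only. The order of the 3 counts was the same in the main setting and in 9 other settings of threshold, unit, depth and choice of cells. At 10 TPM the counts were 84, 47 and 34, and at 100 TPM they were 48, 35 and 10, for Zp2, Zp3 and Zp1.

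The levels fell into a high and a low class with few cells between. Cells at 1 to 10 TPM numbered 4 for Zp2, 5 for Zp3 and 3 for Zp1. Below 1 TPM, Zp2 was listed at 0 in 24 cells, Zp3 in 54 and Zp1 in 81, and the rest of these cells, 26, 32 and 20, had at most 12, 8 and 12 reads of the gene. A level of 1 TPM stood for a median of 19.7 reads of Zp2, 10.5 of Zp3 and 16.7 of Zp1, so the threshold lies near the limit of what a few reads can show. In the 46 cells with no zona gene at 1 TPM, 24 still had a read of Zp2, 16 a read of Zp3 and 6 a read of Zp1, with medians of 3, 2 and 1 reads. Cells with such few reads enter the counts at a lower threshold: at 0.1 TPM, 77.5% of cells had Zp2, 58.7% had Zp3 and 36.2% had Zp1.

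These few reads were unevenly spread over the libraries. A split by the number in the cell's title, chosen after the data were seen, gave 79 cells numbered 80 or below and 59 with a higher number, and no label says how the numbers were given. Of the cells with no zona gene at 1 TPM, 30 had a number of 80 or below, and 8 of them had a read of Zp2, 1 a read of Zp3 and 1 a read of Zp1. The other 16 had a higher number, and 16 had a read of Zp2, 15 of Zp3 and 5 of Zp1. At 0.1 TPM the shares were thus 62.03%, 36.7% and 26.6% for Zp2, Zp3 and Zp1 in the lower-numbered cells, against 98.3%, 88.1% and 49.2% in the others. At 1 TPM they were 58.2% (46.6 to 69.2), 29.1% (19.4 to 40.4) and 20.3% (12.04 to 30.8), against 71.2% (57.9 to 82.2), 49.2% (35.9 to 62.5) and 35.6% (23.6 to 49.1), so the 3 genes kept their order in both sets at both thresholds. The higher-numbered cells had a median of 10178 genes with a read and a spike-in share of 0.297%, against 8673 and 0.534%, and their median position on the order of cells described further on was 57.6% against 46.01%. The part of these values in the low reads was not tested.

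Co-detection per cell was nested rather than even. No zona gene was detected in 46 cells (33.3%, 25.5 to 41.9), Zp2 alone in 36 (26.1%, 18.99 to 34.2), Zp2 with Zp3 in 16 (11.6%, 6.77 to 18.1) and all 3 in 33 (23.9%, 17.1 to 31.9). These 4 combinations held all but 7 germ cells (94.9%, 89.8 to 97.9). The other combinations were Zp1 with Zp2 in 3 cells, Zp3 alone in 3, Zp1 alone in 1, and Zp1 with Zp3 in 0. That 0 allows a share of up to 2.17% as 3 counts, or 2.64% by the exact interval.

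**Figure D1:**
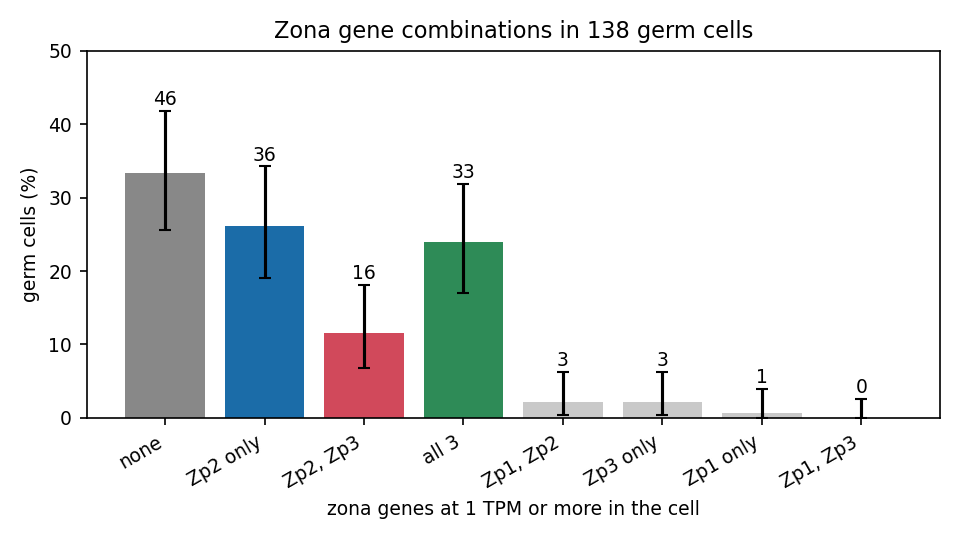
Percentage of the germ cells with each combination of zona genes at 1 TPM or more; error bars are exact 95% intervals and the numbers above are cells. The combinations none, Zp2 only, Zp2 with Zp3, and all 3 hold 46, 36, 16 and 33 cells, and the other combinations hold 7.

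Zp2 was present in nearly every cell with another zona gene. It was detected in 49 of 52 cells with Zp3 (94.2%, 84.1 to 98.8) and in 36 of 37 with Zp1 (97.3%, 85.8 to 99.9). The reverse shares were lower, with Zp3 in 49 of 88 cells with Zp2 (55.7%, 44.7 to 66.3) and Zp1 in 36 of 88 (40.9%, 30.5 to 51.9). Cells with Zp2 and without Zp3 numbered 39, against 3 with Zp3 and without Zp2. Cells with Zp2 and without Zp1 numbered 52, against 1 with Zp1 and without Zp2. Between Zp3 and Zp1 the numbers were 19 and 4. Among cells with Zp2, Zp1 was detected in 33 of 49 that also had Zp3 (67.3%, 52.5 to 80.1) and in 3 of 39 that did not (7.69%, 1.62 to 20.9), and these intervals do not meet.

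The 7 cells outside the nested series differed in how firmly they were measured. Cell 35 had Zp1 at 55.9 TPM from 789 reads, with Zp2 and Zp3 at 0. Cell 33 had Zp3 at 88.2 TPM from 1261 reads, with Zp1 and Zp2 at 0. In both, the absent genes had no read while the present gene had many. Zp3 was at 0 in cell 27, with Zp1 at 42.8 and Zp2 at 114.3 TPM, and in 1 more cell, with Zp1 at 55.6 and Zp2 at 41.2 TPM. It was at 0.743 TPM, from 8 reads, in cell 80, with Zp1 at 54.1 and Zp2 at 132.9 TPM. The last 2 passed by little, with Zp3 at 1.09 and 1.89 TPM from 11 and 19 reads. Cells 27, 33 and 35 also had few genes with a read, 5313, 6495 and 6560 against a median of 9406 over all germ cells, and the part of this in their combinations was not tested.

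Repeat libraries show how well a cell's value repeats. In 4 of the 7 pairs all 3 zona genes were at 0 in both libraries. Zp2 was detected in both libraries of the other 3 pairs, at 18.9 and 18.1, 109.99 and 96.4, and 32.99 and 35.01 TPM, a difference of at most 1.14-fold. Zp3 in the second of these pairs was at 0.865 and 1.37 TPM, so 1 cell changed sides of the threshold between its libraries. The pairs cover sequencing after cDNA was made, if each is 1 cDNA sequenced again, which the labels do not state.

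Per length Zp3 reached the highest level and Zp1 the lowest. Over all germ cells Zp3 averaged 143.2 ± 299 TPM (SD over cells), Zp2 122.2 ± 189 and Zp1 22.8 ± 54.6. The SDs exceed the means, since many cells were at or near 0, and the highest cells had 1454 TPM of Zp3, 911 of Zp2 and 332 of Zp1. By estimated reads per total (CPM), which are not corrected for length, Zp2 was above Zp3, at means of 243.7 and 145.7. Among cells that had the gene, the median TPM was 296 TPM for Zp3, 119.3 for Zp2 and 64.5 for Zp1.

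The median levels of Zp2 and Zp3 were higher in cells with all 3 genes than in cells with fewer. Zp2 had a median of 58.1 TPM (1.94 to 311) in cells with Zp2 alone, 94.7 (1.73 to 490) in cells with Zp2 and Zp3, and 286 (18.2 to 911) in cells with all 3. The ranges overlap in all 3 groups. Zp3 had a median of 44.3 TPM (1.12 to 618) in the 16 cells with Zp2 and Zp3 and 397 (1.06 to 1454) in the 33 with all 3. Zp1 had a median of 83.3 TPM (4.57 to 332) in those 33 cells, and its level in the 4 other cells that had it, 42.8 to 55.9 TPM, lay within that range.

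**Figure D2:**
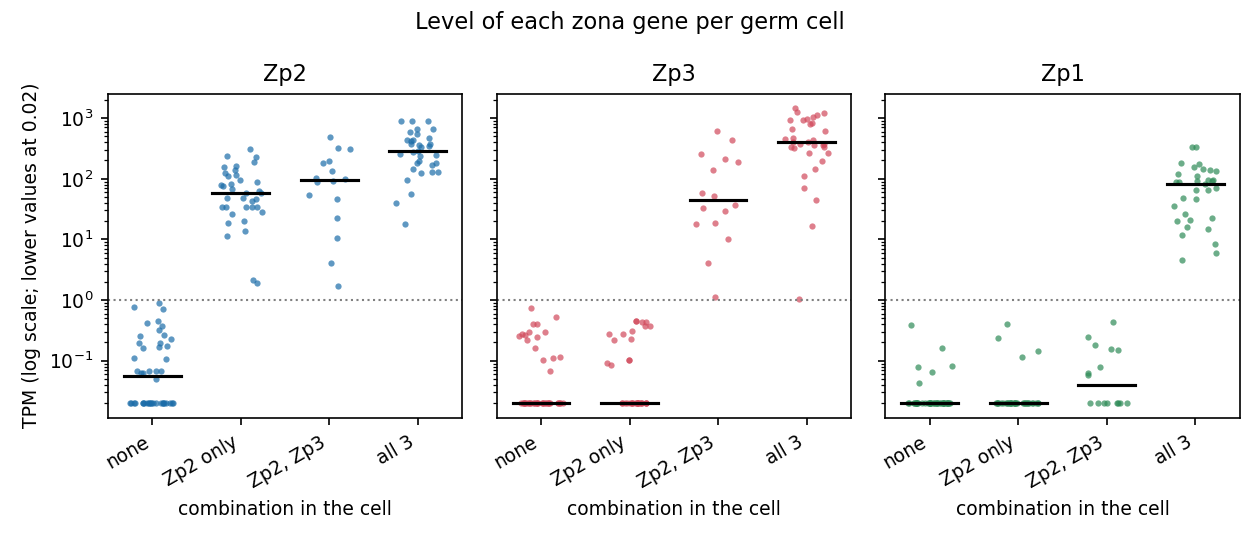
TPM of Zp2, Zp3 and Zp1 on a log scale in each germ cell, by the zona genes detected in it; each point is a cell, black lines are medians, the dotted line is 1 TPM, and values below 0.02 TPM are drawn at 0.02. The 33 cells with all 3 genes have medians of 286, 397 and 83.3 TPM, and few points lie between 1 and 10 TPM.

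Zp3 and Zp1 were detected more often in cells with more Zp2. Zp3 was detected in 3 of 50 cells with Zp2 below 1 TPM (6%, 1.25 to 16.5), 5 of 21 at 10 to 50 TPM (23.8%, 8.22 to 47.2), 12 of 27 at 50 to 150 TPM (44.4%, 25.5 to 64.7) and 30 of 36 at 150 TPM or more (83.3%, 67.2 to 93.6). Zp1 followed in the same classes with 1 of 50, 3 of 21, 8 of 27 and 25 of 36 cells. The 4 cells with Zp2 at 1 to 10 TPM held 2 with Zp3 and 0 with Zp1. Cells with high Zp2 and no Zp3 also occurred, as the plot of Zp2 against Zp3 shows.

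**Figure D3:**
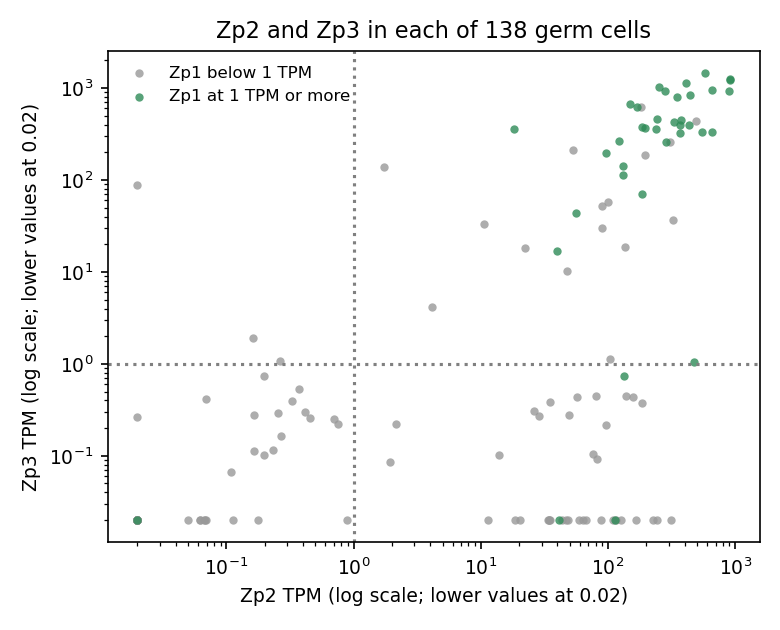
Zp3 against Zp2 in each germ cell, in TPM on log axes with values below 0.02 drawn at 0.02; green points have Zp1 at 1 TPM or more and dotted lines mark 1 TPM. The upper left area holds 3 cells and the lower right 39, and 33 of the 37 cells with Zp1 lie at upper right.

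Within the 33 cells with all 3 genes, Zp3 was the highest in 23 and Zp2 in 10, and Zp1 was the lowest in 29. The log2 ratio of Zp3 over Zp2 had a median of 0.46 with an SD of 1.99, so the order of these neighbours varied between cells. By estimated reads, which are not corrected for length, Zp3 exceeded Zp2 in 11 of 33, with a median of -0.49. Zp1 was below Zp2 in all but 2 cells, with a median log2 ratio of -2.19 (SD 1.57), and Zp3 was above Zp1 in 31, with a median of 2.64 (SD 1.85). Spearman's rho of TPM over these 33 cells was 0.57 between Zp2 and Zp3, 0.56 between Zp1 and Zp3 and 0.52 between Zp1 and Zp2. Over all germ cells it was 0.68, 0.75 and 0.62. The cells share 1 sample and each pair of values shares a library and its depth, so rho is a description.

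Genes with a read, reads, spike-in share and the stroma and blood or endothelial markers differed between the combinations. The median sum of pregranulosa markers was near 0 in each. The median number of genes with a read was 9022.5 in cells with none, 8951 with Zp2 alone, 10055.5 with Zp2 and Zp3, and 10562 with all 3. Median reads were 9240265, 9358630, 9062315 and 10711092, and the median spike-in share was 0.381%, 0.416%, 0.361% and 0.252%. The stroma markers summed to medians of 7.45, 0.527, 0.268 and 1.10 TPM and the pregranulosa markers to 0.367, 0.388, 0.409 and 0.336 TPM, in the same order, with no pregranulosa sum above 81.6 TPM. Among the stroma markers, Nr2f2 reached 1 TPM in 50 germ cells, Col1a2 in 14 and each other in fewer. Nr2f2, Col1a1 and Col1a2 were in a smaller share of cells with all 3 zona genes than with none. Pdgfra, Col3a1 and Dcn were in a larger share. The blood and endothelial markers summed to medians of 87.1, 30.6, 55.3 and 22.1 TPM, with ranges from 0 to 171809, 27883, 15669 and 21892 TPM. Mitochondrial transcripts took a median of 5.59%, 5.52%, 10.7% and 7.21% of the reads. The part of these values in the combinations was not tested. With 1000000 reads drawn from every cell, Zp2 had a read in 95 cells, Zp3 in 59 and Zp1 in 42.

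The order of onset was described along an order of cells that used no zona gene. All cells were taken at one age, so the order is of expression and not of measured time. It was the first principal component of 17 oocyte and meiosis genes taken from the study, among them the meiotic cohesion and axis genes Stag3 and Sycp2 and the oocyte genes Figla, Nobox, Gdf9 and Zar1, and it held 32.4% of their variance. It was set to start where Sycp2 was high. Positions are given as a percentage of the cells.

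Zp2 appeared first along this order, then Zp3, then Zp1. Cells were cut into 5 bins along it. From bin 1 to bin 5 Zp2 was detected in 5 of 28, 11 of 27, 20 of 28, 24 of 27 and 28 of 28 cells. Zp3 was detected in 0, 4, 7, 13 and 28 of them, and Zp1 in 0, 1, 2, 8 and 26. The intervals of Zp2 and Zp3 do not meet in bin 3 (51.3% to 86.8% against 10.7% to 44.9%) and bin 4 (70.8% to 97.6% against 28.7% to 68.1%), while those of Zp3 and Zp1 overlap in every bin. The absence of Zp3 and Zp1 from the 28 cells of bin 1 allows a share of up to 10.7% as 3 counts, or 12.3% by the exact interval.

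**Figure D4:**
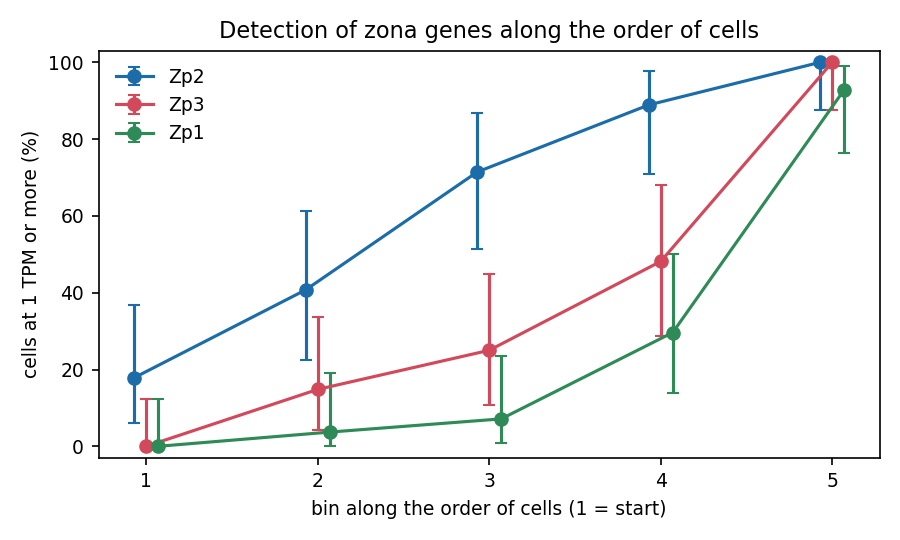
Percentage of cells with Zp2, Zp3 or Zp1 at 1 TPM or more in each of 5 bins along the order of cells (27 or 28 cells a bin), with exact 95% intervals; points are shifted sideways for legibility. Zp2 passes 50% in bin 3, Zp3 and Zp1 in bin 5.

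A logistic curve of detection reached 50% at position 35.4% for Zp2, 62.9% for Zp3 and 73.6% for Zp1. Diffusion pseudotime on the same genes, which had a rho of 0.98 with the main order, gave 35.2%, 62.9% and 73.96%. An order from 20 meiosis genes, with a rho of 0.73, gave 34.9%, 63.03% and 75.3%. An order from 2000 variable genes without those 17, which had a rho of 0.54 with the main order, gave 28.6%, 64.8% and 81.3%. Zp2 came before Zp3 and Zp3 before Zp1 by this curve in all 12 combinations of these 4 orders with thresholds of 0.1, 1 and 10 TPM, though 1 fitted position of Zp2 (-8.37%) lay before the start of its order. The 12 combinations use the same cells, so they are not separate checks. By the first window of 25 cells with the gene in 50% of them, Zp2 came before Zp3 in all 12 and Zp3 before Zp1 in 11, with 1 tie. By the median position of the cells with the gene, Zp2 came before Zp3 in all 12, Zp3 before Zp1 in 10 and Zp1 before Zp3 in 2. By the first cell with the gene, which rests on 1 cell, the numbers were 10 for Zp2 before Zp3 and 5 for Zp3 before Zp1, with 5 ties and 2 the other way. The last 2 measures were chosen after the data were seen. At 0.1 TPM the positions on the main order were 13.3%, 36.8% and 64.9%. In the cells numbered 80 or below they were 38.9%, 68.8% and 77.9% at 1 TPM and 34.95%, 61.7% and 73.4% at 0.1 TPM. In the higher-numbered cells they were 29.7%, 55.8% and 70.7% at 1 TPM, while at 0.1 TPM the fitted positions of Zp2 (-32.03%) and Zp3 (-65.6%) lay before the start of the order, so their order cannot be read there.

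The combinations lay along the order in the same sequence. The median position was 20.3% for cells with none, 48.9% for Zp2 alone, 59.8% for Zp2 with Zp3 and 87.3% for all 3, and the ranges of neighbours overlap widely. The cells with none included 23 in bin 1, 15 in bin 2 and 0 in bin 5. Of the 33 cells with all 3, 26 lay in bin 5 and 6 in bin 4. The remaining one, cell 12, lay in bin 2, at 33.7%, with Zp1 at 328, Zp2 at 551 and Zp3 at 333 TPM. It also had Gdf9 at 73.5 TPM and Padi6 at 2266 TPM, while its Sycp2 was at 183 TPM and its Figla at 342 TPM. In bin 5, 2 cells lacked Zp1, with 1 and 4 reads of it, beside Zp2 at 183 and 490 TPM and Zp3 at 618 and 442 TPM.

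Mean levels were highest at the end of the order. Zp2 averaged 6.11 ± 13.98 TPM (SD over cells) in bin 1, 55.97 ± 54.8 in bin 3 and 375 ± 246 in bin 5. Zp3 averaged 0.121 ± 0.158, 8.76 ± 28.2 and 588 ± 406 TPM in these bins. Zp1 averaged 0.0209 ± 0.0553, 3.99 ± 14.4 and 81.6 ± 75.6 TPM. In bin 2 the means were 48.2 TPM for Zp2, 14.5 for Zp3 and 12.2 for Zp1, the last 2 above those of bin 3, and without cell 12 they were 28.9, 2.26 and 0.0191 TPM. The mean of Zp2 was above that of Zp3 in bins 1 to 4 and below it in bin 5.

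Figla, the known activator of the zona genes, was present in every cell with or without zona transcripts. It was at 1 TPM or more in every germ cell, from 1.87 to 4453 TPM. Its median was 1033 TPM in the 46 cells with no zona gene, 1639 with Zp2 alone, 1191 with Zp2 and Zp3 and 1312 with all 3, with ranges that overlap throughout. The rho of Figla with Zp1, Zp2 and Zp3 over the germ cells was -0.09, 0.07 and -0.08. In 4 classes of cells from the lowest to the highest Figla, Zp2 was detected in 16 of 35, 27 of 34, 22 of 34 and 23 of 35 cells, Zp3 in 10, 20, 14 and 8, and Zp1 in 5, 14, 12 and 6. The share was highest in the second class (815 to 1338 TPM of Figla) for all 3 genes, and the highest class had fewer cells with Zp3 or Zp1 than either middle class.

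The other listed regulators did not share 1 pattern. Nobox, a homeobox factor of early oocytes, was at 1 TPM or more in 35 of 46 cells with no zona gene and in all 49 cells with Zp2 and Zp3. Tbpl2 (TBP2), the oocyte's own TATA-binding factor, was in 0 of 46 cells with none. That 0 allows a share of up to 6.52% as 3 counts, or 7.71% by the exact interval. Tbpl2 was in 5 of 36 with Zp2 alone, 4 of 16 with Zp2 and Zp3, and 26 of 33 with all 3 (78.8%, 61.1 to 91.02). Of its 37 cells, 36 had Zp2, 31 had Zp3 and 27 had Zp1.

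Between the ends of the order, a gene was called at a 2-fold difference of mean TPM plus 1. Genes were compared if they averaged 1 TPM or more in bin 1 or bin 5. For a gene near 0 in 1 of these bins, passing this filter in the other sets or nearly sets its call. Such calls are not read as results. Of 12570 coding genes compared, 17.8% were higher and 25.8% lower in bin 5 than in bin 1, with a median log2 ratio of -0.27. Scaling to the spike-ins moved that median to 0.45. Of the 6 listed regulators that had not been used for the order, 2 were called higher. Tbpl2 (log2 5.27) averaged 0.00231 TPM in bin 1 and 37.7 in bin 5, so its call was nearly set by the filter. Tcf4 (1.31), at 14.1 and 36.4 TPM, is a partner of basic helix-loop-helix factors. Sohlh2 (-1.34), another such factor of early oocytes, was called lower. Tcf3 (0.72), Foxo3 (0.81), which keeps primordial follicles dormant, and Tcf12 (-0.18) were not called. Under spike-in scaling 4 of these 6 were higher and 0 lower, where 33.4% of all genes compared were higher and 13% lower. The zona genes, by the same ratio, stood at 9.04 for Zp3, 6.34 for Zp1 and 5.72 for Zp2, and at 10.06, 7.47 and 6.71 with spike-in scaling. Zp3 and Zp1 averaged 0.121 and 0.0209 TPM in bin 1, so they passed the filter only through bin 5. Their ratios give little more than their level in bin 5 and are not read as results.

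Genes of the egg surface and of zona processing also differed among themselves. Of 7 compared, 3 were called higher and 1 lower. Of the 3, Astl and Izumo1r (0.378 TPM in bin 1, 37.0 in bin 5) passed the filter only through bin 5. Their calls and the count of 3 are therefore not read as results. Astl, for ovastacin, had a mean of 0.00446 TPM in bin 1 and 11.6 in bin 5 (log2 3.65). It was at 1 TPM or more in 14 cells, from 2.56 to 98.7 TPM, and each of the 14 had all 3 zona genes. It was in 14 of the 33 such cells (42.4%, 25.5 to 60.8) and in 0 of the 16 with Zp2 and Zp3 alone. That 0 allows a share of up to 18.8% as 3 counts, or 20.6% by the exact interval. Izumo1r (Juno, log2 4.78), the sperm receptor of the egg membrane, was found in 6 of 46 cells with no zona gene and 13 of 36 with Zp2 alone. Cd9, a tetraspanin needed for fusion with sperm, was higher by 1.82 and was in 42 of 46 cells with none. Cd81, a related tetraspanin, was lower (-2.26). The convertases Furin (0.47), Pcsk6 (0.33) and Pcsk7 (-0.23), proteases that cut proteins on the secretory route, were not called, and Pcsk5 was in only 5 cells and was not compared.

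Other genes with a ZP domain were mostly near 0. Of 14 listed symbols 12 were matched, and apart from Zp4-ps only Zpld1, in 21 cells, and Tgfbr3, a coreceptor of TGF-beta, in 34, reached 1 TPM in more than 8 cells. Zp4-ps (ENSMUSG00000113593.1, chr13:11522052-11528852, plus strand) was at 1 TPM or more in 19 cells, from 1.71 to 59.6 TPM with a median of 15.8. All 19 had Zp2, 18 had Zp3 and 16 had Zp1. It was in 0 of 46 cells with no zona gene, 0 of 36 with Zp2 alone, 3 of 16 with Zp2 and Zp3 and 15 of 33 with all 3 (45.5%, 28.1 to 63.6). Its share was thus below that of Zp1, and its reads come from an annotated pseudogene.

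The oocyte-secreted factors Gdf9 and Bmp15 were found mainly in cells with several zona genes. Gdf9, a growth factor that acts on granulosa cells and one of the 17 order genes, was in 4 of 46 cells with none, 7 of 36 with Zp2 alone, 9 of 16 with Zp2 and Zp3 and 31 of 33 with all 3. Its partner Bmp15 was in 13 cells, all with Zp2, 12 with Zp3 and 10 with Zp1. Of the 5 secreted genes not used for the order, 4 were called higher and Fgf8 lower. Bmp15, Oosp1, Oosp2 and Oosp3 were listed at 0 in bin 1 and averaged 3.59, 2.78, 6.65 and 1.07 TPM in bin 5. Fgf8 averaged 1.20 TPM in bin 1 and 0.0717 in bin 5. Each passed the filter only through the bin where it was higher. The 5 calls were thus set or nearly set by the filter and are not read as results. Oosp2 was in 12 cells, 1 with Zp2 alone, 2 with Zp2 and Zp3 and 9 with all 3. Oosp1 and Oosp3 each reached 1 TPM in 3 cells, 1 with Zp2 and Zp3 and 2 with all 3. Fgf8, a fibroblast growth factor, also reached it in 3 cells, 2 with none and 1 with all 3. By CPM, on the same filtered genes, 3 of the 5 were higher and 0 lower, with Oosp3 at 0.67. Of all genes compared, 21.4% were higher and 22.2% lower by CPM. Of 19 meiosis genes compared, 13 were called lower and 0 higher by TPM, beside 25.8% and 17.8% of all genes compared. Sycp1 (-0.23), Sycp3 (-0.15), Syce2 (0.46), Hormad2 (-0.90), Tex15 (-0.15) and Mlh3 (-0.85) were not called. The 13 included Spo11, which makes the meiotic double-strand breaks (-4.13), Dmc1, the meiotic recombinase (-3.35), and Hormad1, an axis protein (-2.48). They also included Rec8 (3.59 TPM in bin 1, 0.0139 in bin 5), which passed the filter only through bin 1. Under spike-in scaling 8 of the 19 were lower and 1 higher, beside the 13% and 33.4% of all genes under that scaling. The order used the meiotic genes Sycp2 and Stag3 and was set to start where Sycp2 was high. A fall of other meiosis genes along it was thus partly set by the order, and these counts are not read as results.

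**Figure D5:**
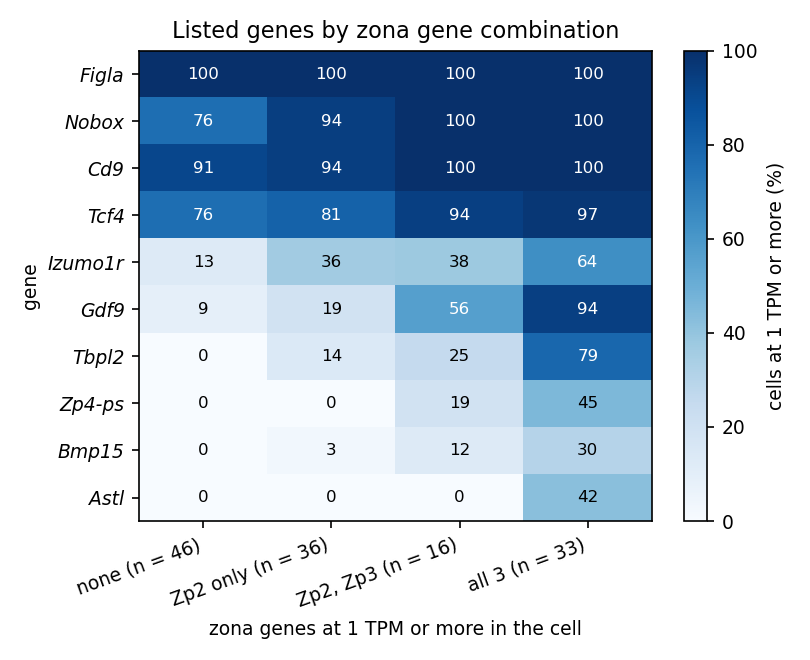
Percentage of cells with 10 listed genes at 1 TPM or more, by the zona genes detected in the cell (46, 36, 16 and 33 cells); darker is higher and the numbers are percentages. Figla fills every column, while Tbpl2, Zp4-ps and Astl are at 0 in the first column and highest where all 3 zona genes are present.

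The genes most like each zona gene were ranked by rho of TPM over all germ cells, among 10728 other coding genes with 1 TPM in at least 20 cells. For Zp1 they were Padi6 (0.77), a component of the cytoplasmic lattices of the oocyte, Dpf3 (0.76), a chromatin remodelling subunit, Zp3 (0.75), Oas1c (0.72) and the homeobox gene Noto (0.69). For Zp3 they were Padi6 (0.79), Zp1 (0.75), Noto (0.74), Npm2 (0.74), an oocyte histone chaperone, and Nlrp4f (0.73). The lists of Zp1 and Zp3 thus name each other and share Padi6 and Noto. For Zp2 they were Ldhb (0.80), a lactate dehydrogenase subunit, Nlrp4f (0.77), of an oocyte gene family, Akap12 (0.73), an anchoring protein of protein kinase A, Unc13c (0.72) and Tsga10ip (0.72).

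Zp2 stood further from the other zona genes, at rank 26 for Zp1 and 11 for Zp3, while Zp3 and Zp1 held ranks 16 and 40 for Zp2. The median rho over all these genes was 0.04 for Zp1, 0.03 for Zp2 and 0.06 for Zp3. Nlrp4f was in 95 cells and Ldhb in still more, against 88 with Zp2, whereas Padi6 was in 58 and Npm2 in 38. In the 33 cells with all 3 genes, Padi6 had a median of 705 TPM and Ldhb of 1643 TPM, against 0 and 0.789 TPM in the cells with none. Within the 33 cells with all 3, 0 of the 5 genes were kept for Zp1, 0 for Zp2 and 1 for Zp3.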

How the data were processed

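Single germ cells of ovaries at day 0.5 were profiled by Smart-seq2. The authors quantified reads with Salmon on mm10 transcripts and spike-ins and deposited TPM and estimated counts per gene symbol; the annotation release is not given in the sources used here. The deposited length columns did not match the TPM of Zp2 and Zp3 and were not used. The members and gene lists were chosen with earlier results of these data known. Repeat libraries (r above 0.98, TPM averaged, reads summed) were merged after the data were examined. Cells with Ddx4 below 1 TPM were left out. A gene was detected at 1 TPM. Shares have exact Clopper-Pearson 95% intervals, and a count of 0 allows 3 counts. Positions are midpoints of logistic curves over the order of cells. Listed genes were compared as log2 of mean TPM plus 1 in the last over the first of 5 bins, over coding genes averaging 1 TPM or more in 1 of these bins, with a call at 2-fold. Named genes were the 3 members, the 5 coding genes with the highest Spearman rho to each, and the lists of regulators, egg surface, ZP domain, oocyte-secreted, order and meiosis genes. Intervals cover counting error only. Procedures were tested on simulated data. Alternatives changed thresholds, depth, unit, cells, order and scaling. Python 3.11.15, scipy 1.17.1 and scanpy 1.11.5 were used.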

Additional observations from a re-analysis of the deposited data

Results flagged for a closer look

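The 1 cell left out for lack of Ddx4 had Zp2 at 18.9 TPM from 61 reads, a signal outside the cells described above. It also had Zp4-ps at 40.5 TPM from 84 reads, and it had no read of Zp1 or Zp3. Figla was at 0, Sycp3 at 0.659 TPM and Dazl at 0.221 TPM, and the library held 1408459 reads, fewer than any of the germ cells. No second cell of this kind was measured.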

How the results depend on the processing

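Under other settings, 32 of 36 shares stayed within the interval of the main value. The SD of each mean level over cells exceeds the mean, so no stability is read from it: with spike-in scaling the means were 43.8 TPM for Zp1, 215.8 for Zp2 and 286 for Zp3. Of counts of cells with 1 gene and without another, 50 of 54 stayed within 1.5 times. Of positions of 50% detection, 14 of 18 stayed within the exact interval of that share of cells. Of lists of 5 like genes, 5 of 9 were mostly kept, and 14 of 20 counts of listed genes stayed within 1.5 times. At 0.1 TPM the shares were 36.2% for Zp1, 77.5% for Zp2, 58.7% for Zp3 and 34.1% for all 3, cells with Zp3 and without Zp1 numbered 34, and the positions of 50% detection were 64.9% for Zp1, 13.3% for Zp2 and 36.8% for Zp3. Cells with Zp1 and without Zp2 numbered 2 at 10 or more reads, 3 with 1000000 reads drawn per cell and 2 at 1 CPM. On the order from variable genes Zp1 stood at 81.3%. Of the 5 most like genes, 0 (Zp1), 0 (Zp2) and 1 (Zp3) were kept within cells with all 3, and 2 (Zp2) under spike-in scaling. Spike-in scaling, chosen after seeing the data, gave 4 regulators higher and 0 lower, 0 oocyte-secreted genes lower, and 1 meiosis gene higher and 8 lower; with CPM 0 of 5 oocyte-secreted genes were lower, beside 22.2% of all genes compared. The cause was not tested. The counts of oocyte-secreted genes follow largely from the filter on the end bins and are not read as results. The counts of meiosis genes follow partly from the order of cells and are not read as results either. Counting each repeat library as a cell, also chosen after seeing the data, left the shares in place. A level of 1 TPM is 10.5 to 19.7 reads, and cells below it cannot be told apart from cells without the gene. The low reads also differed by title number, and the part of depth in the low class was not tested. No paired analysis was possible because there was 1 group.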
